A study of Mus musculus with 15 samples.

Results

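Mouse mammary epithelium was compared before and after 36 h of culture without added FGF10. The comparison took the 3 BSA 36 h libraries (replicates 1, 2 and 3) against the 3 libraries at 0 h (replicates 1, 2 and 4), 6 of the 15 libraries of a series that asks whether collectively migrating epithelium undergoes an epithelial-mesenchymal transition (EMT). Both groups were mammary gland epithelial organoids of wild-type mice. In the later group the tissue lay beside a bead soaked in bovine serum albumin (BSA), the carrier protein control for FGF10 beads, in DMEM/F12 basal medium with insulin-transferrin-selenium, L-alanyl-L-glutamine and penicillin-streptomycin. The labels name no age, promoter, Cre or transgene. They do not say whether the libraries of a group came from separate mice or cultures. Each p below therefore measures the spread between libraries within groups, estimated over all groups of the series, and that spread may be technical. All genes that passed the filter on low counts were taken, 18140 of the 54456 in the table for the comparison. The genes named below were in part chosen by their response.

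Organoids are pieces of duct freed from the fat pad by digestion. They hold an inner luminal layer, which includes hormone-sensing and secretory precursor cells, and an outer basal layer of contractile myoepithelial cells. Dissociation is known to switch on immediate early genes such as Fos and Jun within minutes, and cells moved into serum-free medium meet new supplies of glucose, iron, lipid and growth factor. HIF1, SREBP2, NRF2 and ATF4 are transcription factors that control genes for glycolysis, sterols, redox defence and amino acid supply.

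Totals ran from 11965322 to 24261233 counted fragments at 0 h and from 15581146 to 18732149 at 36 h. Mitochondrial transcripts made up 2.16% to 2.59% of counts at 0 h and 2.02% to 3.43% at 36 h. The epithelial markers Epcam, Krt8, Krt18, Krt5 and Krt14 were present in all 6 libraries, with a lowest value of 349.6 CPM for Krt5, where CPM is the fragment count scaled to library size with TMM. Replicate 1 at 0 h stood apart. Its 40 genes of the mitosis list summed to 2374 CPM, against 327 and 265.9 CPM in the other 0 h libraries, so results are given with it, and list counts and calls also without it where they changed. At 36 h, replicate 1 was the outlying library for acute-phase transcripts and had the lowest summed glycolysis list, 15080 CPM against 29980 and 21130 CPM. In each sentence below, 0 h values are in the order of replicates 1, 2 and 4, and 36 h values in the order of replicates 1, 2 and 3. A log2 difference is 36 h minus 0 h with its standard error, and an adjusted p comes from the quasi-likelihood test of edgeR with Benjamini-Hochberg adjustment over all tested genes.

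Culture changed a large share of the transcriptome. At an adjusted p under 0.05, 4916 genes were called (27.1%), of which 2312 rose (12.7%) and 2604 fell (14.4%). The list counts below are to be read against these shares. At least 2-fold rises numbered 1229 (6.78%) and at least 2-fold falls 1438 (7.93%). The 6 libraries separated without overlap between groups at 7391 genes (40.7%). The median log2 difference over all tested genes was 0.01. Leaving out 0 h replicate 1 gave 5029 calls among 18634 tested genes (27%), with 2599 rises (13.9%) and 2430 falls (13%). In both fits 1887 genes rose and 2161 fell, and 0 were called in opposite directions. The call was lost for 425 rises and 442 falls without that library, and gained for 685 rises and 234 falls.

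**Figure D1:**
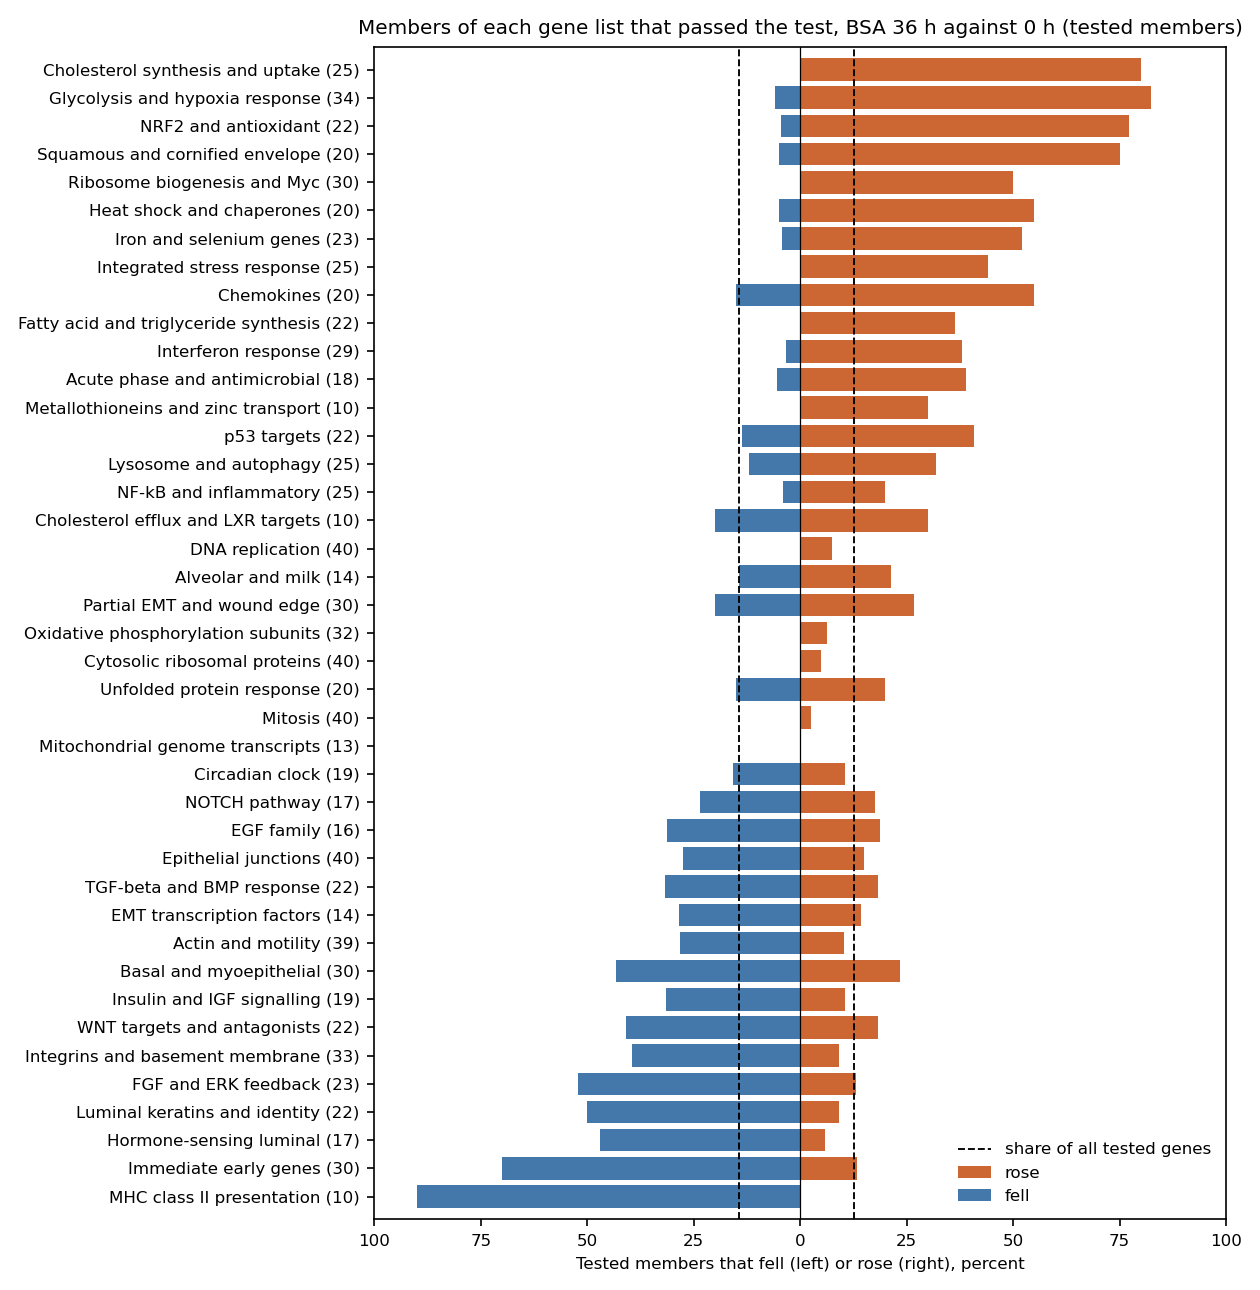
Bars give the percentage of tested members of each of 41 gene lists that rose (right) or fell (left) from 0 h to BSA 36 h, with the number of tested members in brackets, and dashed lines give the same percentages over all tested genes, 12.7% and 14.4%. Cholesterol, glycolysis, NRF2 and squamous lists lie far to the right, with 20 of 25, 28 of 34, 17 of 22 and 15 of 20 members raised. Tested squamous members with 0 counts at 0 h, such as Klk6, could only rise. Immediate early and MHC class II lists lie far to the left, with 21 of 30 and 9 of 10 members lowered.

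The immediate early genes were high in freshly prepared tissue and low after culture. Of 30 tested members, 21 fell and 4 rose, with a median log2 difference of -2.63. Fos, a subunit of the AP-1 transcription factor on chromosome 12 (85520664 to 85524047, plus strand, in the GRCm39 coordinates of the deposited table), read 4125, 20850 and 12630 CPM at 0 h and 75.9, 54.5 and 67.1 CPM at 36 h, a difference of -7.57 ± 0.52 (adjusted p = 5.52e-07). Its partner Jun read 1903, 5620 and 3890 CPM and then 63.2, 64 and 87.8 CPM (-5.73 ± 0.34, adjusted p = 1.29e-07). In both genes the lowest 0 h library was replicate 1, and the groups did not overlap. Egr1 fell by 4.30 ± 0.45 (adjusted p = 1.89e-05), Ier2 by 4.34 ± 0.31, Atf3 by 5.50 ± 0.82 and Btg2, an antiproliferative gene also induced by p53, by 3.54 ± 0.29. The phosphatase Dusp1 (log2 difference -4.45) and the mRNA decay factor Zfp36 (-4.42), which end such responses, fell with them. The rises were Fosl1, Fosl2, Ier3 and Nr4a2, the last of them lost without 0 h replicate 1 (adjusted p = 0.0867, edgeR). Fosl1, an AP-1 subunit of migrating epithelium, went from 0.0845, 0.774 and 0.55 CPM to 1.43, 3.7 and 4.22 CPM (2.87 ± 0.59, adjusted p = 0.00219). Myc did not pass, at 117, 76.2 and 106 CPM before and 85.6, 78.8 and 91.6 CPM after (-0.22 ± 0.18, adjusted p = 0.376). Without 0 h replicate 1 the list counted 22 falls and 3 rises.

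**Figure D2:**
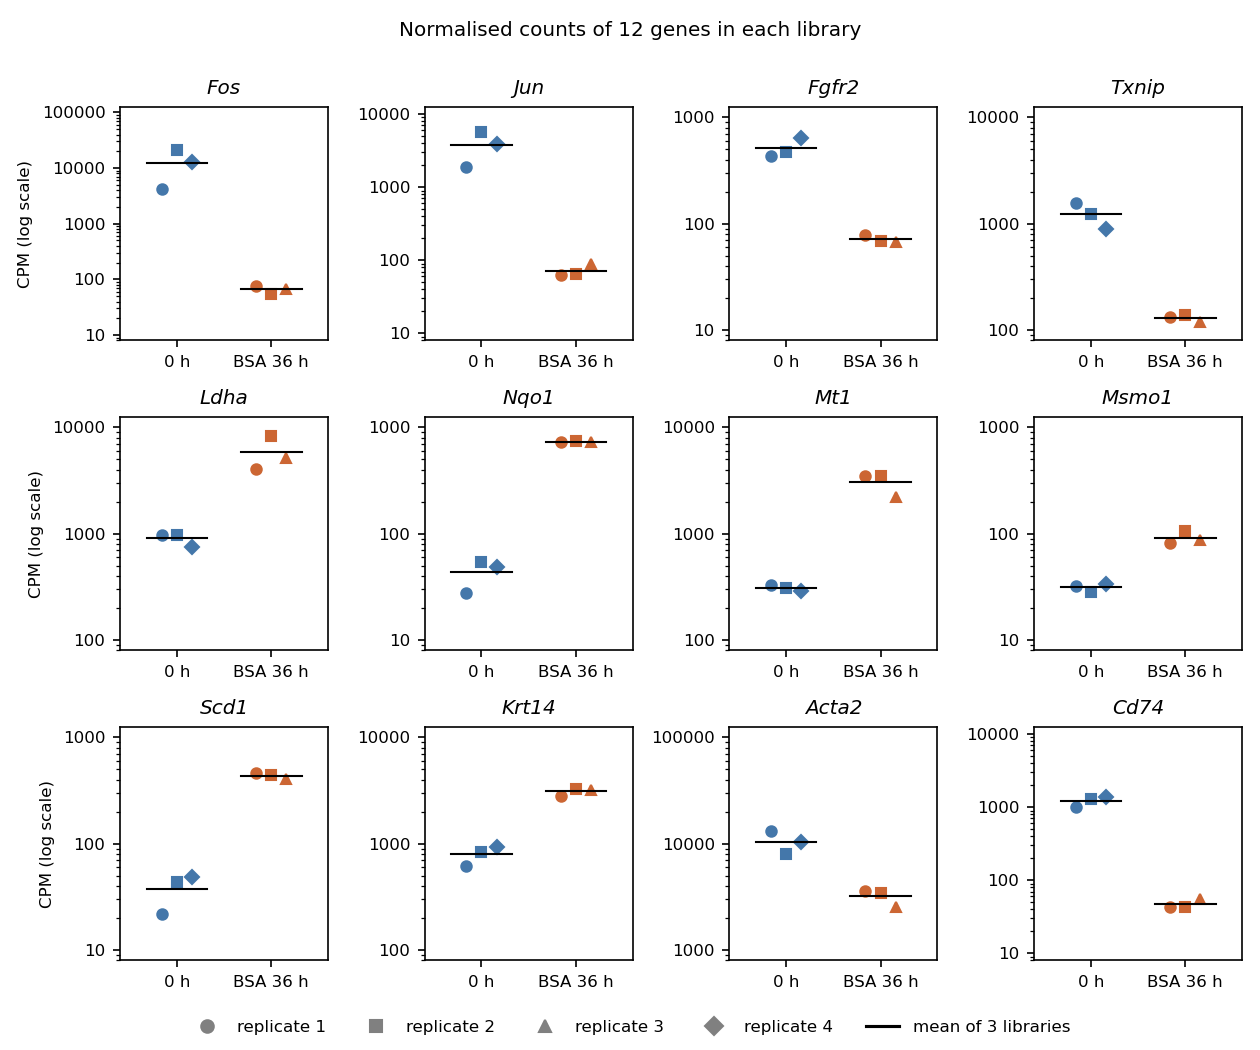
Normalised counts in CPM (vertical axes, log scale, each with its own range) of 12 genes in the 0 h libraries (blue) and the BSA 36 h libraries (orange), with marker shape for the replicate and a bar for the mean of 3 libraries. In every panel the groups are separate, with Fos, Jun, Fgfr2, Txnip, Acta2 and Cd74 lower at 36 h and the other 6 genes higher.

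Genes of the FGF and ERK feedback list, which also holds the carrier Fgfbp1, were mostly lower at 36 h in the BSA libraries. Of 23 members 12 fell and 3 rose, with a median of -0.92 (11 falls and 2 rises without 0 h replicate 1). The summed list was 2398 to 5232 CPM at 0 h, 669 to 763 CPM in the BSA 36 h libraries and 754 to 1062 CPM in the FGF10 36 h libraries. Its largest fall was Egr1 (-4.30), given above with the immediate early genes, so the sum is not separate from theirs. Fgfr2, the receptor for FGF10, read 437, 475 and 637 CPM at 0 h and 77.5, 68.8 and 67.7 CPM at 36 h (-2.86 ± 0.21, adjusted p = 5.52e-07). With FGF10 at 36 h it stood at 76 ± 20.5 CPM, against 71.3 ± 5.35 CPM with BSA (mean ± SD, n = 3; adjusted p = 0.833 in edgeR). The annotated span of Fgfr2 on chromosome 7 is 2960899 bases wide for 10328 exon bases, and what else its counts may include was not tested. Dusp6, a phosphatase of ERK and a target of it, read 103, 143 and 135 CPM and then 26.1, 24.6 and 30.8 CPM (-2.23 ± 0.23, adjusted p = 1.09e-05). Spry1, a feedback inhibitor of receptor tyrosine kinases, fell by 2.05 ± 0.20 and the ETS factor Etv1 by 1.02. Spry2 and Etv5 did not pass. Fgfbp1, a carrier that releases FGFs from matrix, rose from 2.11, 4.84 and 3.52 CPM to 61.5, 76.9 and 90.8 CPM (4.50 ± 0.37, adjusted p = 2.53e-06). Without BSA 36 h replicate 1 the list held 8 falls and 2 rises among 24 tested members.

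Among ligands and receptors of the EGF family, 3 of 16 rose and 5 fell. The ligand Epgn rose from 0.0845, 0.387 and 0.33 CPM to 3.21, 22 and 21.3 CPM (adjusted p = 0.000253). Nrg4 fell from 7.48, 47.4 and 106 CPM to 5.23, 8.52 and 9.28 CPM (-2.81 ± 0.69, adjusted p = 0.0102), and its low 0 h value was in replicate 1, inside the 36 h range. The receptors Erbb2 (-1.16 ± 0.15), Erbb3 (-0.57) and Erbb4 (-1.50 ± 0.39) fell, while Egfr did not pass. Areg did not pass at an adjusted p of 0.99, and its 0 h values of 46.9, 943.8 and 1442 CPM show how far replicate 1 lay from the other libraries.

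Genes of glucose breakdown and of the hypoxia response rose as a block. Of 34 tested members 28 rose and 2 fell, with a median log2 difference of 1.71. Ldha, which makes lactate from pyruvate, read 976, 981 and 749 CPM at 0 h and 4099, 8249 and 5165 CPM at 36 h (2.69 ± 0.25, adjusted p = 2.72e-06). Slc16a3, the lactate exporter MCT4, rose from 0.76, 0.677 and 0.77 CPM to 15.2, 65.2 and 28.9 CPM (5.60 ± 0.61, adjusted p = 4.68e-05). Pgk1, which makes ATP in glycolysis, rose from 13.8, 14.8 and 8.2 CPM to 56.1, 154.5 and 94.4 CPM (3.06 ± 0.36, adjusted p = 5.5e-05). All 3 genes had non-overlapping groups, and in all 3 the highest 36 h library was replicate 2 and the lowest replicate 1. The enzymes Eno1 (2.07 ± 0.17), Pkm (2.36 ± 0.21), Aldoa (2.35 ± 0.32) and Pfkp (1.80 ± 0.15) also rose. Outside the glycolytic chain, the mitophagy receptor Bnip3 (3.18 ± 0.60), the carbonic anhydrase Car12 (3.62 ± 0.32), the angiogenic factor Vegfa (1.84 ± 0.34) and the vasodilator peptide Adm (2.83 ± 0.69) rose. The glucose transporter Slc2a1 rose by a smaller 0.71 ± 0.20, from 101, 135.8 and 108.9 CPM to 162, 218.5 and 184.5 CPM (adjusted p = 0.014). The falls were Egln3 (-1.20 ± 0.23), an oxygen-sensing prolyl hydroxylase, and Pfkfb4 (-0.67 ± 0.21). Gapdh counts (9.67, 9.87 and 5.67 CPM, then 28.4, 75 and 52.3 CPM) are uncertain, because fragments shared with its many pseudogenes were left out of the table. The list had 27 rises without 0 h replicate 1 and 27 without BSA 36 h replicate 1.

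The sequences before the start sites of 3 of these genes are shown because the members moved together and the letters ACGTG form the core of the element that HIF1 binds. They are the 250 bases upstream of the RefSeq start in GRCm38.p6, a build older than that of the deposited counts, printed 5′ to 3′ along the gene with each ACGTG, on either strand, in capitals. A run CACGTG holds the motif on both strands and counts as 2 overlapping matches. Ldha (chr7:46845554-46845803, plus strand, 1 of 2 RefSeq windows) has 5 matches, the farthest starting 145 bases and the nearest 34 bases before the start. Pgk1 (chrX:106186850-106187099, plus strand) has 2, at 150 and 131 bases, and Slc16a3 (chr11:120948817-120949066, plus strand) has 2, at 27 and 14 bases.
Ldha: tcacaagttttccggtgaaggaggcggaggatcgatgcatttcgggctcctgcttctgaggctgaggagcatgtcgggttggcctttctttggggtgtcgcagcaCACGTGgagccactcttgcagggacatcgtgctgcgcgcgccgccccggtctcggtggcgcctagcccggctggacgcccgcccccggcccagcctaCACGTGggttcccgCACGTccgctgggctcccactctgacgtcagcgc
Pgk1: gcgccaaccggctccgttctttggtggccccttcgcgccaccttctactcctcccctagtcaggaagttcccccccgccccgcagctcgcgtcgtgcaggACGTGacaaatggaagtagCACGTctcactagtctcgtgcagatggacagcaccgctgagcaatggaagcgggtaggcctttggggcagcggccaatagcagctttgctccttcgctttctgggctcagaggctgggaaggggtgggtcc
Slc16a3: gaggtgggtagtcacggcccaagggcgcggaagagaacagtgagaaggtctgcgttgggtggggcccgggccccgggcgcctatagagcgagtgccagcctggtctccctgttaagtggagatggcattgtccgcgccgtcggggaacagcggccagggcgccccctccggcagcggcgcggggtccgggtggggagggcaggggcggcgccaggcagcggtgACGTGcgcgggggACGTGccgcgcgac
Of the 34 members 33 were matched to RefSeq promoters, with 49 windows, and 23 windows (46.94%) held ACGTG. Over all 32851 windows of the table, 5444 (16.57%) held it. This describes sequence only.

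Respiratory genes showed no such shift. Of 32 nuclear subunits of oxidative phosphorylation 2 rose, Cycs (0.96 ± 0.28) and Cox7c (0.49 ± 0.12), and 0 fell, with a median of 0.09. None of 13 mitochondrial genome transcripts passed, by edgeR, and 0 of 13 did so in the fit without 0 h replicate 1. Txnip, an arrestin that limits glucose uptake and is induced by glucose, read 1566, 1240 and 885 CPM at 0 h and 132.8, 138.1 and 117.9 CPM at 36 h (-3.25 ± 0.25, adjusted p = 8.24e-07). It was the largest fall of the insulin and IGF list, in which 6 of 19 fell and 2 rose (7 and 2 without 0 h replicate 1). Irs2 (-1.04 ± 0.17), an insulin receptor adaptor repressed by insulin, Igf1r (-1.07 ± 0.19) and Pik3ip1 (-1.41 ± 0.14), an inhibitor of PI3 kinase, fell. Igfbp3, an IGF-binding protein, rose from 110, 81.5 and 145 CPM to 966, 363 and 403 CPM (2.36 ± 0.51, adjusted p = 0.00457).

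Cholesterol synthesis and uptake genes rose in 20 of 25 members, with 0 falls and a median of 1.02 (19 rises without 0 h replicate 1). Msmo1, an enzyme that removes methyl groups from sterols, read 32.1, 28.6 and 34 CPM and then 82.3, 106.3 and 87.3 CPM (1.54 ± 0.14, adjusted p = 2.72e-06). Cyp51 (1.52 ± 0.21), Lss (1.23 ± 0.16) and Fdps (1.73 ± 0.23), enzymes along the pathway, rose with it. Hmgcs1, at its entry, read 22.9, 13.6 and 22.6 CPM and then 52.1, 53.1 and 37.1 CPM (1.26 ± 0.24, adjusted p = 0.00133). Insig1, which holds SREBP in the endoplasmic reticulum and is itself an SREBP target, rose by 2.01 ± 0.28. Neither Msmo1 nor Hmgcs1 overlapped between groups. Without BSA 36 h replicate 1 the list held 16 rises. Fatty acid synthesis rose in 8 of 22 members and fell in 0, with a median of 0.32 (10 rises without 0 h replicate 1). Without BSA 36 h replicate 1 this list had 8 rises and 1 fall, with a median of -0.04. Scd1, a desaturase, read 21.6, 43.6 and 48.3 CPM and then 465.6, 440.4 and 404.5 CPM (3.53 ± 0.25, adjusted p = 3.84e-07). Scd2 (3.05 ± 0.23), Fasn (1.13 ± 0.16) and the regulator Srebf1 (1.14 ± 0.14) also rose, while Acly, Fads1 and Fads2 did not pass, although Fads1 did without 0 h replicate 1 (adjusted p = 0.0464, edgeR). In the opposite direction, Apoe, the main lipid carrier of efflux, fell from 2317, 3107 and 3129 CPM to 656.1, 465.8 and 450.1 CPM (-2.44 ± 0.41, adjusted p = 0.000602).

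The window of Hmgcs1 is shown because it is the cholesterol gene of this table with the sterol regulatory element core TCACNCCAC, in capitals below (chr13:119690101-119690350, plus strand, GRCm38.p6, starting 137 bases before the RefSeq start).
Hmgcs1: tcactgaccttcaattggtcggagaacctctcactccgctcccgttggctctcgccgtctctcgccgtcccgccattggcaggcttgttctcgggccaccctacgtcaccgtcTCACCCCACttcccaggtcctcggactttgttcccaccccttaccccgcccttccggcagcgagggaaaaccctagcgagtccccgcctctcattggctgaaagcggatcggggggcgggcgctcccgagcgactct
It was 1 of 20 windows of 17 matched members (5.0%) with these exact letters on either strand, against 346 of 32851 (1.05%) in all.

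Redox and iron genes rose. Of 22 members of the NRF2 list 17 rose and 1 fell, with a median of 1.14 (16 rises without 0 h replicate 1). Nqo1, a quinone reductase, read 27.6, 54.3 and 49.1 CPM at 0 h and 721, 746 and 728 CPM at 36 h (4.07 ± 0.22, adjusted p = 6.42e-08). Hmox1, which degrades haem, rose by 3.59 ± 0.32, Me1, a source of NADPH, by 3.07 ± 0.32, and Srxn1, which restores peroxiredoxins, by 2.05 ± 0.15. Gclc, the catalytic subunit for glutathione synthesis, was the fall (-1.20), while its partner Gclm rose (1.19). Of the iron and selenium list 12 of 23 rose and 1 fell. Tfrc, the transferrin receptor, rose from 8.03, 8.61 and 7.7 CPM to 27.9, 47.3 and 38 CPM (2.22 ± 0.21, adjusted p = 4.17e-06). Fth1, the ferritin heavy chain that stores iron, rose in the same libraries from 4723, 4684 and 3274 CPM to 15680, 21780 and 16740 CPM (2.10 ± 0.27, adjusted p = 5.53e-05). Gpx2, a selenium-containing peroxidase of epithelia, read 4.86, 1.26 and 1.32 CPM and then 923, 400.4 and 503.4 CPM (7.85 ± 0.62, adjusted p = 2.68e-06). Selenop, the selenium transport protein, fell (-1.67). Fth1 and Ftl1 have processed copies, and the Ftl1-ps1 pseudogene rose alongside Ftl1 (2.49 ± 0.27 and 2.53 ± 0.27), so their division is uncertain. Metallothionein Mt1, which binds zinc and other metals, rose from 326, 308 and 289.5 CPM to 3481, 3474 and 2225 CPM (3.31 ± 0.26, adjusted p = 9.33e-07), and Mt2 rose by 2.58 ± 0.42. Slc39a8, a zinc importer, was the other riser among 10 members, a call lost without BSA 36 h replicate 1 (adjusted p = 0.0984), and 0 fell.

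Stress pathways did not move alike. The integrated stress response, in which ATF4 raises amino acid genes, had 11 rises and 0 falls among 25 (13 and 1 without 0 h replicate 1). Slc7a11, the cystine importer, read 1.35, 0.484 and 0.495 CPM and then 27.5, 7.17 and 9.52 CPM (4.13 ± 0.66, adjusted p = 0.000652). Gdf15, a stress cytokine, read 0.423, 1.84 and 0.495 CPM and then 6.07, 48.7 and 25.8 CPM (5.08 ± 0.99, adjusted p = 0.00301). Cebpb (2.23 ± 0.26), Mthfd2 (1.13 ± 0.20) and Trib3 (1.12) rose, while Atf4 and Ddit3 did not pass. The unfolded protein response had 4 rises and 3 falls among 20 (3 and 3 without 0 h replicate 1), close to the shares over all genes, and its chaperone Hspa5 did not pass (0.31 ± 0.16, adjusted p = 0.172). Heat shock genes rose in 11 of 20 and fell in 1 (10 and 2 without 0 h replicate 1), led by Hsph1 (1.20 ± 0.14), Cryab (1.08 ± 0.24) and the mitochondrial pair Hspe1 (1.01 ± 0.19) and Hspd1 (0.82 ± 0.13). Hspa1a, the stress-inducible HSP70, fell from 49.6, 172.5 and 184.6 CPM to 25.6, 37.4 and 41.8 CPM (-1.95 ± 0.44, adjusted p = 0.00599), and it shares most of its sequence with Hspa1b. Of 22 p53 targets 9 rose and 3 fell (6 and 3 without 0 h replicate 1). Cdkn1a, a brake on the cell cycle, rose from 44.2, 69.6 and 35.8 CPM to 138, 313 and 238 CPM (2.21 ± 0.35, adjusted p = 0.000484), and Perp, a desmosome protein, rose by 1.21 ± 0.17. The falls were Btg2, Plk2 (-2.92 ± 0.26) and Sesn1 (-1.01).

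The window of Slc7a11 is shown because it carries the CHOP and ATF4 type of amino acid response element, TTGCATCA, on both strands (chr3:50443614-50443863, minus strand, GRCm38.p6). The matches, in capitals, start 66 and 47 bases before the RefSeq start.
Slc7a11: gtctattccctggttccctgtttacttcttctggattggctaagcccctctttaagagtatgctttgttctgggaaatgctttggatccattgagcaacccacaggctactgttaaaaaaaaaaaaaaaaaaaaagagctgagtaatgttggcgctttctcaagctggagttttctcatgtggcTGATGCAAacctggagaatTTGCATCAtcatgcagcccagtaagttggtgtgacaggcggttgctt
Of 26 windows of 22 matched members of the list, 5 (19.23%) held it, against 260 of 32851 (0.79%) in all, on either strand.

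Calls on growth and cell cycle genes depended on which libraries were used. Ribosome biogenesis factors rose in 15 of 30 members and fell in 0, with a median of 0.44. Gar1 (0.83 ± 0.14) and Fbl (0.76 ± 0.15), which modify ribosomal RNA, were among them. Without 0 h replicate 1, 10 rose, and without BSA 36 h replicate 1, 8 rose, with medians of 0.38 and 0.43. Ribosomal protein genes barely entered the calls, with 2 rises among 40 (1 rise and 1 fall without 0 h replicate 1).

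Most proliferation genes passed when 0 h replicate 1 was left out and few did with it. With all libraries 3 of 40 DNA replication genes rose (median 0.68) and 1 of 40 mitosis genes rose (median 1.07). Without that library 40 of 40 and 39 of 40 rose, with medians of 1.64 and 3.61, and 0 fell in either fit. Mki67, the proliferation antigen, read 49.1, 4.45 and 2.92 CPM at 0 h and 59.8, 34.7 and 41.8 CPM at 36 h. Its difference was 1.24 ± 0.76 with all libraries (adjusted p = 0.258) and 3.66 without 0 h replicate 1 (adjusted p = 1.45e-06). Top2a, which untangles replicated DNA, read 105.6, 6.97 and 3.69 CPM and then 91.9, 58.5 and 71.9 CPM, with adjusted p values of 0.467 and 4.14e-07. Mcm2, a subunit of the replicative helicase, read 59.2, 18.2 and 15.4 CPM and then 45, 32.3 and 41 CPM, with adjusted p values of 0.57 and 0.000603. For Mki67, 0 h replicate 1 lay inside the 36 h range, for Top2a and Mcm2 it lay above it, and the other 0 h libraries lay below the range for all 3 genes. Pole2, Pola2, Orc1 and Mad2l1 were called in both fits, and of these Pola2 (adjusted p = 0.0719) and Orc1 (adjusted p = 0.098) lost the call without BSA 36 h replicate 1. With all libraries but each weighted by its fit, limma voom called 36 replication and 38 mitosis genes as rises. Leaving out 0 h replicate 2 or 4 instead did not bring the lists up, with at most 1 of 40 replication genes and 1 of 40 mitosis genes called as rises. Leaving out both first replicates gave 35 and 39 rises. Whether 0 h replicate 1 differs in the tissue or in its handling was not tested.

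**Figure D3:**
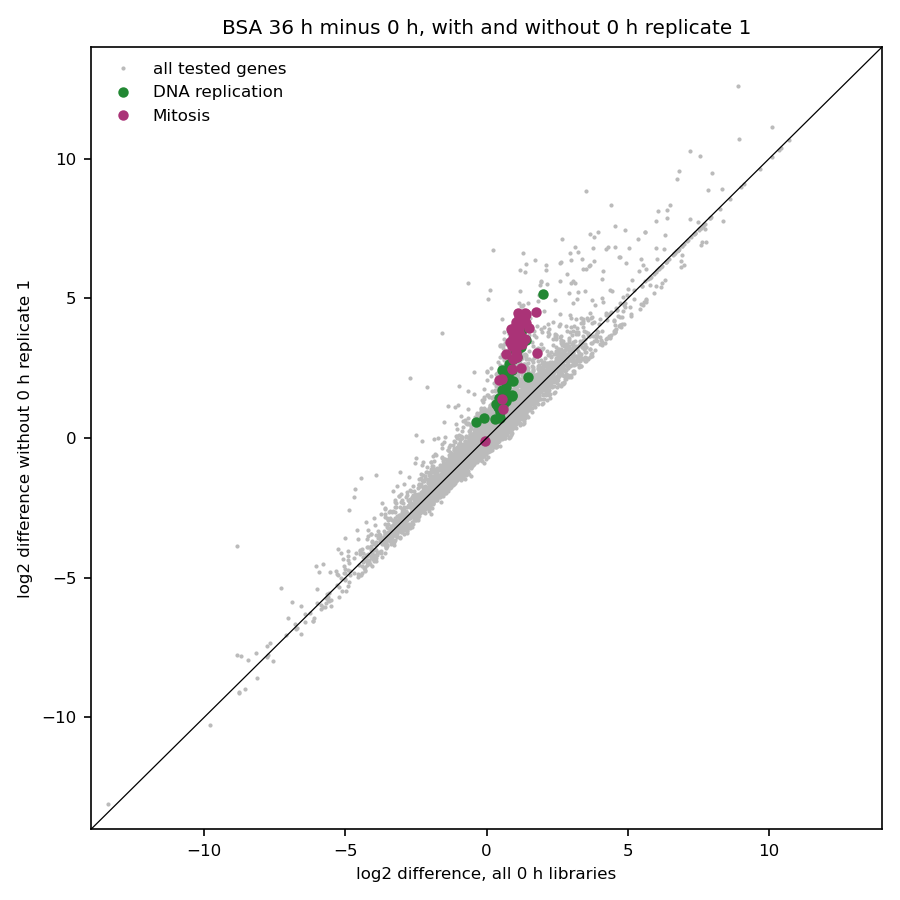
Each point is a gene, with its log2 difference from 0 h to BSA 36 h using all libraries (horizontal axis) and without 0 h replicate 1 (vertical axis), and the line marks equal values. The DNA replication (green) and mitosis (purple) genes lie above the line apart from 1 mitosis gene near 0, with medians moving from 0.68 to 1.64 and from 1.07 to 3.61.

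Luminal identity genes were mostly lower after culture. Of 22 tested members 11 fell and 2 rose, with a median of -0.80. Keratins Krt18 (10010, 14010 and 10280 CPM, then 3747, 7983 and 6395 CPM) and Krt19 (10130, 14440 and 16340 CPM, then 5449, 6405 and 6103 CPM) fell by 0.92 ± 0.29 and 1.19 ± 0.20. Krt18 missed the threshold once replicate 1 at BSA 36 h was removed (adjusted p = 0.0998), and Krt8 did not pass (adjusted p = 0.225). The luminal transcription factors Foxa1 (-2.06 ± 0.29), Gata3 (-1.57 ± 0.27), Spdef (-2.26 ± 0.24) and Elf3 (-1.20 ± 0.18) fell, and the alveolar factor Elf5 did not pass. Aldh1a3, a retinaldehyde dehydrogenase of luminal progenitors, rose from 97.6, 208 and 182 CPM to 1059, 822 and 1128 CPM (2.63 ± 0.24, adjusted p = 3.1e-06). In bulk libraries fewer cells of a type and less RNA per cell cannot be told apart.

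Of 17 hormone-sensing genes 8 fell and 1 rose (7 and 1 without 0 h replicate 1). Prlr, the prolactin receptor, read 2132, 5014 and 5244 CPM and then 531, 1326 and 882 CPM (-2.18 ± 0.37, adjusted p = 0.000627). Cited1, a coactivator of oestrogen receptor, fell by 4.49 ± 0.49, Ptn, a growth factor, by 3.72 ± 0.31, and Wnt4, a progesterone target, by 2.19 ± 0.39. The receptors Esr1 and Pgr did not pass. Pgr read 13.4, 144.4 and 118.4 CPM at 0 h and 47, 144.9 and 107 CPM at 36 h, so that the groups overlapped and 0 h replicate 1 was the lowest. The oestrogen target Greb1 was the riser, from 0.465, 3.39 and 0.385 CPM to 7.55, 40.5 and 33.5 CPM (4.54 ± 0.91, adjusted p = 0.00356). Of 14 alveolar genes 3 rose and 2 fell (4 and 3 without 0 h replicate 1). Spp1, osteopontin, read 0.76, 0.29 and 0.165 CPM at 0 h and 494, 488 and 498 CPM at 36 h (10.09 ± 0.44, adjusted p = 9.64e-09), with hardly any spread among the later libraries. The milk protein Csn3 did not pass (adjusted p = 0.229), and Csn2, the beta-casein, failed the filter.

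Basal and myoepithelial genes changed in both directions. Of 30 members 7 rose and 13 fell (8 and 11 without 0 h replicate 1). The keratins Krt5 (360.7, 349.8 and 349.6 CPM, then 1189, 1302 and 1297 CPM) and Krt14 (615, 832 and 932 CPM, then 2806, 3274 and 3207 CPM) rose by 1.84 ± 0.15 and 1.97 ± 0.19 (adjusted p = 1.36e-06 and 4.93e-06). Krt17 (1.36 ± 0.28) and the hemidesmosome genes Col17a1 (1.07 ± 0.16) and Itgb4 (0.73) also rose. Several contractile genes of the list fell. Acta2, smooth muscle actin, read 13080, 7987 and 10400 CPM and then 3624, 3443 and 2540 CPM (-1.71 ± 0.27, adjusted p = 0.000344). Cnn1 (-2.70 ± 0.29), Myh11 (-2.29 ± 0.19), Myl9 (-1.86 ± 0.28), Actg2 (-1.60) and Tagln (-1.23) fell, as did Oxtr (-0.90), the oxytocin receptor of milk ejection. Trp63, the basal master factor, did not pass (-0.002 ± 0.159, adjusted p = 0.995), at 52.3, 43 and 49.3 CPM and then 58, 40.9 and 45.6 CPM. Markers of pericytes and vascular smooth muscle fell in 3 of 9 tested members over the same interval (1 of 9 without 0 h replicate 1), with sums of 56.8 to 113.7 CPM at 0 h and 48.3 to 66.7 CPM at 36 h. Their part in the fall of these genes was not tested.

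Genes of EMT did not change in a single direction. Among 14 transcription factors 2 rose, near the 12.7% of all tested genes, and 4 fell, against 14.4%, with a median of -0.10. Snai1 rose from 0.0845, 0.194 and 0.165 CPM to 0.476, 2.07 and 0.714 CPM (2.92 ± 0.74, adjusted p = 0.00836), which are low levels throughout. Zeb2 fell from 6.25, 13.2 and 3.41 CPM to 1.31, 2.86 and 1.19 CPM (-2.06 ± 0.47, adjusted p = 0.00466), and Zeb1 fell by 2.45 ± 0.82 (adjusted p = 0.0398), a call lost without 0 h replicate 1 (adjusted p = 0.0821) or without BSA 36 h replicate 1 (adjusted p = 0.113). Snai2 and Twist1 did not pass. Vim did not pass (adjusted p = 0.245) and Cdh2 did not (adjusted p = 0.472), whereas Fn1, fibronectin, rose from 9.67, 6.48 and 2.59 CPM to 28.6, 17.9 and 16.3 CPM (1.73 ± 0.38, adjusted p = 0.00463). Of the partial EMT and wound edge list 8 of 30 rose and 6 fell (9 and 6 without 0 h replicate 1). Tnc, a matrix protein of wounds (2.55 ± 0.37), the activin subunit Inhba (2.40) and Thbs1 (2.13) rose, while the YAP targets Ccn1 (-2.95 ± 0.27) and Ccn2 (-2.18 ± 0.31) fell. Zeb1 and Zeb2 are also expressed by fibroblasts and blood vessels, whose marker lists fell in these libraries, and the part of those cells was not tested.

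Adhesion genes had calls in both directions, to be read against 12.7% rises and 14.4% falls over all tested genes. The share of rises in each of these lists was near that over all genes. Of 40 junction genes 6 rose and 11 fell (7 and 11 without 0 h replicate 1). Cdh1, E-cadherin, read 320, 351 and 358 CPM and then 225, 194 and 235 CPM (-0.66 ± 0.18, adjusted p = 0.0151). The tight junction genes Cldn3 (-1.29 ± 0.14), Cldn8 (-2.59 ± 0.27), Ocln (-1.01) and Tjp1 (-0.66) fell, while Cldn1 rose (2.21 ± 0.31). Among desmosomal genes Pkp1 (1.12 ± 0.15), Dsc3 (1.64 ± 0.36) and Dsc2 (0.94) rose, Evpl (-1.40) and Ppl (-0.66) fell, and Dsp (0.34), Pkp3 (0.30) and Pkp2 (-0.06) did not pass. Dsg3 had 3 counts in all at 0 h and 490 at 36 h, 166 times as many per scaled fragment, with a 95% interval of 56.3 to 806 from counting error alone, and all 3 of its early counts were in 0 h replicate 1. Of 33 integrin and basement membrane genes 3 rose and 13 fell (3 and 12 without 0 h replicate 1). Collagen IV chains Col4a2 (-2.05 ± 0.30) and Col4a1 (-2.02) and the integrins Itga1 (-2.05 ± 0.33), Itga3 (-0.94) and Itgb5 (-0.93 ± 0.11) fell. Of 39 actin genes 11 fell and 4 rose, with 12 falls and 5 rises without 0 h replicate 1 and 7 falls without BSA 36 h replicate 1. Actb read 22700, 21110 and 21230 CPM and then 11800, 10990 and 8768 CPM (-1.04 ± 0.32, adjusted p = 0.023), Ezr fell by 0.90 ± 0.19, and its relative Msn rose by 0.85 ± 0.18. Tmsb4x, which binds actin monomers, fell from 12430, 13190 and 16140 CPM to 1455, 2935 and 1961 CPM (-2.72 ± 0.25, adjusted p = 2.91e-06).

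Squamous genes were higher after culture. Of 20 tested members 15 rose and 1 fell, with a median of 3.65 (16 and 1 without 0 h replicate 1). Of the 31 listed genes 11 had 0 counts at 0 h and 6 had 0 counts at 36 h. A tested member with 0 counts at 0 h passed the filter through other groups and could only rise, so the count of rises is in part set by the filter. Ivl, involucrin of the cornified envelope, read 0.127, 1.55 and 0.11 CPM at 0 h and 16.8, 206.5 and 221.7 CPM at 36 h (8.38 ± 1.33, adjusted p = 0.00083). Krt6a, a keratin of wound edges and stressed skin, rose by 4.22 ± 0.52, Krt16 by 3.82 ± 0.31, Lor, loricrin, by 5.63 ± 0.77 and Sbsn by 3.06 ± 0.27. Klk6, a secreted protease, had 0 counts at 0 h and 502 at 36 h, at least 170-fold higher with a floor of 3 counts over the group. Tgm1, the transglutaminase that cross-links the envelope, was the fall, from 10.7, 18.6 and 19.2 CPM to 3.15, 3.14 and 5.71 CPM (-2.01 ± 0.30, adjusted p = 0.000214). The summed list was 39.9 to 104.9 CPM at 0 h and 269.5, 803.6 and 745.3 CPM at 36 h, lowest in replicate 1. Fragments shared by Krt6a, Krt6b, Krt16 and other near copies were left out of the table, so their single values are uncertain.

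Inflammatory lists differed in which library led. Of 18 acute-phase genes 7 rose and 1 fell (7 and 2 without 0 h replicate 1), and their sum was 32290 CPM in replicate 1 at 36 h against 5614 and 7336 CPM in the others. Chil1, a chitinase-like protein, read 102, 203 and 133 CPM and then 10000, 1263 and 1693 CPM (4.89 ± 0.98, adjusted p = 0.00342), and without BSA 36 h replicate 1 the difference was 3.32 (adjusted p = 0.00759). Hp, haptoglobin, read 149.7, 519.7 and 281.1 CPM and then 9271, 1224 and 2201 CPM (3.74 ± 0.80, adjusted p = 0.00463). Lcn2 did not pass (adjusted p = 0.329), at 1403, 1905 and 1244 CPM and then 8910, 1062 and 1234 CPM. Replicate 1 at 36 h lay above the 0 h range and the other later libraries lay below it. Without BSA 36 h replicate 1 the difference was -0.42 (adjusted p = 0.751, edgeR). Wfdc2 fell from 7251, 4536 and 3207 CPM to 280, 290.5 and 341 CPM (-4.04 ± 0.30, adjusted p = 6.17e-07). Chemokines rose in 11 of 20 and fell in 3 (8 and 3 without 0 h replicate 1), and their sum was lowest in replicate 1 at 36 h. Ccl20, which draws lymphocytes and dendritic cells, had 0 counts at 0 h and 520 at 36 h, at least 176-fold higher, with 20.9, 3.08 and 6.78 CPM in the later libraries, most of it in replicate 1. Cxcl16 rose by 2.08 ± 0.20. Cxcl17 (-3.41 ± 0.32) and Cxcl14 (-3.02 ± 0.51) fell. Interferon genes rose in 11 of 29 and fell in 1 (13 and 0 without 0 h replicate 1), with Irf7 at 2.16 ± 0.47 and Isg15 at 1.94 ± 0.43. Of 25 NF-kB genes 5 rose and 1 fell (4 and 1 without 0 h replicate 1), and Ptgs2, which makes prostaglandins, read 0.338, 1.26 and 0.165 CPM and then 7.08, 42 and 31.6 CPM (5.78 ± 0.85, adjusted p = 0.000457). Without BSA 36 h replicate 1, this list had 3 rises and 3 falls and the acute-phase list 6 rises.

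MHC class II presentation fell in 9 of 10 tested members, with a median of -2.71. Cd74, the invariant chain, read 996, 1279 and 1368 CPM at 0 h and 42.6, 42.8 and 55.6 CPM at 36 h (-4.69 ± 0.28, adjusted p = 1.29e-07). H2-Eb1 fell by 5.63 ± 0.43, H2-Aa by 5.23 ± 0.39 and the master regulator Ciita by 2.41. Macrophage and myeloid markers fell beside it in 14 of 18 tested members (13 without 0 h replicate 1), with sums of 607 to 748 CPM at 0 h and 281 to 657 CPM at 36 h, overlapping through replicate 1 at 36 h. Csf1r, the receptor that macrophages need, read 12.3, 16.5 and 12.1 CPM and then 1.07, 1.18 and 2.26 CPM, and Ptprc, the leukocyte antigen CD45, read 6.04, 6.29 and 8.64 CPM and then 1.31, 0.616 and 0.595 CPM. The part of those cells in the MHC class II fall was not tested.

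Markers of cells from outside the epithelium were lower after culture. Endothelial markers fell in 10 of 20 tested members, fibroblast markers in 11 of 18, lymphocyte markers in 4 of 7, red cell and platelet markers in 5 of 7, and 0 rose in each of these. Without 0 h replicate 1 these falls numbered 8, 10, 4 and 4. Summed endothelial markers were 386.3, 664.8 and 113.1 CPM at 0 h and 43.7, 127.2 and 36.1 CPM at 36 h, where 0 h replicate 4 lay below the highest 36 h library. Summed fibroblast markers were 1026, 1125 and 596.8 CPM and then 571.3, 281.3 and 250.1 CPM, without overlap. Pecam1 fell by 2.54 ± 0.76 (adjusted p = 0.0261), a call lost without 0 h replicate 1 (adjusted p = 0.0503) or without BSA 36 h replicate 1 (adjusted p = 0.0807), and Col1a1, read at 40, 11.3 and 2.59 CPM and then 1.61, 2.52 and 1.31 CPM, fell by 3.31 ± 0.84. Adipocyte markers had 3 falls and 1 rise, Lpl, among 13, nerve markers 2 falls and 1 rise among 7, and skeletal muscle markers 1 fall and 2 rises among 5. Without 0 h replicate 1 nerve markers had 1 fall and muscle markers 0 falls and 1 rise. Adipoq had at most 0.718 CPM in any of the 6 libraries.

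**Figure D4:**
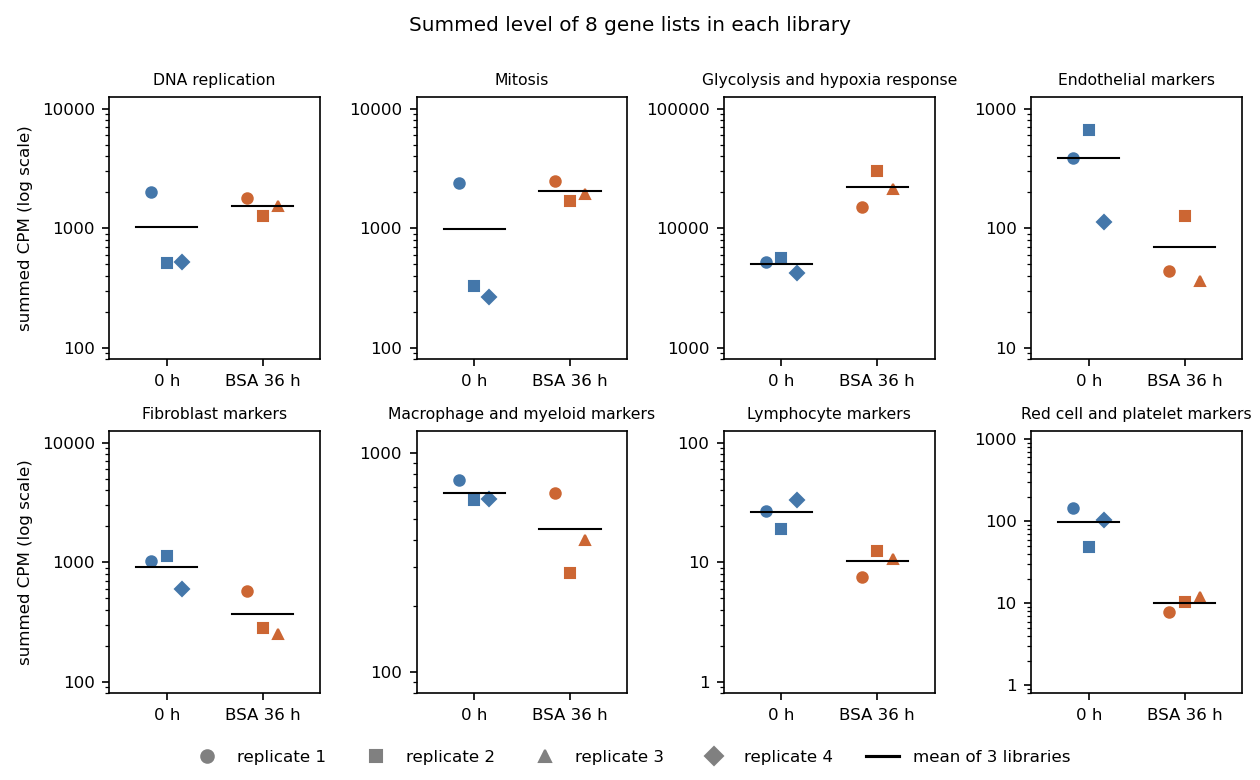
Summed CPM (vertical axes, log scale, each with its own range) of 8 gene lists in the 0 h (blue) and BSA 36 h (orange) libraries, with marker shape for the replicate and a bar for the mean. The mitosis list stands at 2374 CPM in 0 h replicate 1 and at 327 and 265.9 CPM in the other 0 h libraries, and the red cell list falls from 48.3 to 143.6 CPM at 0 h to 7.91 to 12.1 CPM at 36 h.

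Developmental signalling lists had calls in both directions, to be read against 12.7% rises and 14.4% falls over all genes. WNT genes rose in 4 of 22 and fell in 9 (4 and 6 without 0 h replicate 1), with Cd44 up by 2.30 ± 0.21 and the antagonists Sfrp2 (-2.26 ± 0.32) and Dkk3 (-1.23 ± 0.23) down. The direct WNT target Axin2 did not pass. Of 22 TGF-beta and BMP genes 4 rose and 7 fell. Id1, a BMP target, rose from 8.32, 47 and 5.94 CPM to 94.6, 117.7 and 200.7 CPM (2.79 ± 0.67, adjusted p = 0.00976), while the ligands Bmp4 (-3.89 ± 0.99) and Tgfb3 (-0.98 ± 0.15) and the receptor Tgfbr2 (-0.88 ± 0.14) fell. NOTCH genes rose in 3 of 17 and fell in 4 (3 and 3 without 0 h replicate 1), near those shares, with the ligand Jag1 up by 0.67 ± 0.18 (adjusted p = 0.0543 without BSA 36 h replicate 1) and the target Hes1 down by 0.50 ± 0.14. Clock genes rose in 2 of 19 and fell in 3, also near those shares, and without 0 h replicate 1 rose in 4 and fell in 4. Nr1d1, a repressor in the clock loop, fell from 58.9, 102.8 and 37.1 CPM to 18.6, 22 and 19.4 CPM (-1.72 ± 0.29, adjusted p = 0.0006), Per1 fell by 1.48 ± 0.27 and Dbp did not pass. The labels give no time of day for either group. Lysosome and autophagy genes rose in 8 of 25 and fell in 3, and without 0 h replicate 1 rose in 5 and fell in 4.

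Several of the largest changes were in genes at or near 0 in 1 group, where only a bound or ratio can be given. Sbp, a secreted spermine-binding protein on chromosome 17 (24160646 to 24164581, plus strand, GRCm39), had 4745 counts at 0 h and 0 at 36 h, at least 1560-fold lower, with 107, 34.5 and 102 CPM in the 0 h libraries. Tmem213, a membrane protein, had 0 and 637 counts and was at least 215-fold higher, with 25.2, 6 and 6.36 CPM at 36 h. Its span on chromosome 6 lies inside that of Atp6v0a4, a riser given below, on the other strand. Strand was not used in counting, so fragments of Atp6v0a4 among the Tmem213 counts cannot be told apart. Reg3b, a secreted antimicrobial lectin, had 0 and 426 counts (at least 144-fold higher) and the acute-phase protein Orm1 0 and 311 (at least 105-fold higher). Orm1 read 15.3, 1.34 and 1.73 CPM at 36 h, so replicate 1 carried most of its bound, as it did for Tmem213. Klk1, a kallikrein protease, had 1 and 684 counts, a ratio of 693 with an interval of 124 to 27400, and its early count was in 0 h replicate 1. Where counts allowed a fitted value, Atp6v0a4, a subunit of the proton pump of acid-secreting cells, rose by 7.99 ± 0.51, from 0.211, 0 and 0.055 CPM to 47.3, 21.5 and 23.6 CPM (adjusted p = 3.77e-07). Agtr1a, an angiotensin receptor, fell from 93, 175 and 459 CPM to 5, 2.58 and 2.68 CPM (-6.15 ± 0.74, adjusted p = 0.000126). Leaving out 0 h replicate 1 changed the fold on the linear scale by over 1.5 times for several genes, given here as log2 differences. The shift was upward for Atp6v0a4 (7.99 to 9.49), Spp1 (10.09 to 11.13), Gpx2 (7.85 to 8.87), Slc7a11 (4.13 to 4.88), Dsc3 (1.64 to 2.39), Inhba (2.40 to 3.02), Lpl (1.64 to 2.44), Slc39a8 (1.40 to 2.15), Il1rn (7.20 to 7.85), Krt6b (2.92 to 5.2), Orc1 (1.99 to 5.16), Mad2l1 (1.78 to 3.06), Pole2 (1.45 to 2.19) and Pola2 (0.89 to 1.55). It was toward 0 for Col1a1 (-3.31 to -1.90), Fosl1 (2.87 to 2.26) and Ivl (8.38 to 7.76). Leaving out BSA 36 h replicate 1 moved several named genes toward 0 by as much, among them Hp (3.74 to 2.42), Chil1 (4.89 to 3.32) and Slc7a11 (4.13 to 3.29).

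The direct contrast of BSA 72 h with BSA 36 h called 85 genes (0.469%). Some summed lists still lay apart between these times, although the sums were not tested. Fibroblast markers summed to 250.1 to 571.3 CPM at 36 h and 796.7 to 962.9 CPM at 72 h. The integrated stress response stood at 2793 to 3843 CPM and then 6263 to 6878 CPM. The mitosis list stood at 1685 to 2501 CPM and then 1009 to 1094 CPM, whereas the glycolysis list overlapped. Of the 3 BSA 72 h libraries 2 share replicate number 2 and were the most alike pair of that group. If they come from 1 culture, the p-values of the 72 h contrast are too small. The pair also enters the spread behind the p-values of BSA 36 h against 0 h, which is estimated over all 15 libraries. Spp1 fell from 493.6 ± 5.02 to 192.6 ± 21 CPM (mean ± SD, n = 3; adjusted p = 0.0499 in edgeR), still above every 0 h library. Atp6v0a4 rose from 30.8 ± 14.4 to 99.6 ± 4.23 CPM (adjusted p = 0.0313, edgeR), Pik3ip1 from 27.7 ± 4.73 to 47.8 ± 5.79 CPM (adjusted p = 0.0313, edgeR), and Csn3 fell from 1017 ± 305.9 to 83.8 ± 26.2 CPM (adjusted p = 0.0313, edgeR). Adipoq was at 0.0934 ± 0.162 CPM at 36 h and 21.2 ± 3.98 CPM at 72 h (adjusted p = 0.0484, edgeR). For the other named genes this contrast did not pass, which does not show that their levels stayed the same.

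Set directly against the FGF10 36 h libraries, the BSA 36 h libraries differed at 425 genes (2.34%), of which 173 were higher with FGF10 (0.954%) and 252 lower (1.39%). Dusp6 stood at 27.1 ± 3.2 CPM in the BSA libraries and 59.5 ± 19.8 CPM in the FGF10 libraries (mean ± SD, n = 3; log2 difference 1.13, adjusted p = 0.0196 in edgeR). Ivl stood at 148 ± 114 CPM with BSA and 5.58 ± 5.34 CPM with FGF10 (adjusted p = 0.0384, edgeR).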

How the data were processed

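RNA of 15 libraries was sequenced, and the authors deposited 1 table of raw fragment counts for 54456 gene names. Per the file headers these counts came from featureCounts 2.0.1 with paired fragments summed over exons by gene name, without strand and without fragments that map to several places or genes. The submitters' processing notes also list cutadapt 1.9.1, HISAT2 2.2.1 and the GRCm39 build. Since strand was not used, fragments of overlapping antisense genes cannot be told apart.

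The counts were tested with edgeR 4.0.16 (R 4.3.3) in 1 quasi-likelihood model over all 15 libraries and 5 groups, after its default filter on low counts and TMM scaling, with no covariate. Calls were made at a Benjamini-Hochberg adjusted p under 0.05 over 18140 genes. The procedure was tested on simulated data. Alternatives were DESeq2 1.42.0, limma 3.58.1 (voom with sample weights), other filters and scalings, a replicate block and leaving out each library. Genes with at most 3 counts in a group are given as bounds (a floor of 3 counts over the group) or ratios with 95% intervals, which cover counting error only, since no molecular identifiers were used.

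The comparison and its gene lists were chosen with earlier results of these data known. Genes named were a panel of EMT and lineage genes, the 15 largest rises and falls in both fits with at least 5 CPM, the members of each list with the smallest p, the most abundant called genes, and genes whose call depended on 0 h replicate 1. Further list members were named after their values were seen, and not every gene of the rule is printed. Some genes are not reported here.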

Additional observations from a re-analysis of the deposited data

Results flagged for a closer look

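The levels reached at 36 h were set directly against those of the FGF10 36 h libraries (n = 3 each). Among the 204 genes named in the text that changed from 0 h to BSA 36 h, 33 also differed between the FGF10 and BSA arms at 36 h in edgeR, with adjusted p-values from 0.00141 to 0.0474. Over all 18140 tested genes 425 (2.34%) differed between these arms. The contrasts share the BSA 36 h libraries and the genes were partly picked for large changes, so the count of 33 is a description. Log2 differences of FGF10 minus BSA follow in brackets. Lipid synthesis genes that rose with BSA and were higher with FGF10 were Msmo1 (1.11), Hmgcs1 (1.17), Fdps (1.11), Cyp51 (0.89), Lss (0.66) and Fasn (0.89). Risers that were lower with FGF10 were Ivl (-4.71), Lor (-3.68), Klk1 (-4.38), Sbsn (-1.07), Hmox1 (-1.81), Gsta3 (-1.41), Pfkp (-0.71) and Foxi1 (-1.50). The summed squamous list overlapped between the arms, at 269.5 to 803.6 CPM with BSA and 271.5 to 660.7 CPM with FGF10. Other risers that were higher with FGF10, the squamous keratin Krt6a among them, were Krt6a (1.91), Dsg3 (1.33), Dsc3 (1.44), Tnc (2.18), Spp1 (1.36), Msn (0.75), Jag1 (0.86) and Itgb4 (0.59). Genes that fell in the BSA culture and were higher with FGF10 were Dusp6 (1.13), Plk2 (1.43), Wfdc2 (1.99), Actg2 (1.17), Itga3 (1.28), Dkk3 (0.97) and Ppl (0.70). Those that fell and were lower again with FGF10 were Txnip (-1.23), Erbb4 (-2.05), Oxtr (-0.98) and Tgfb3 (-0.61). No explanation was tested.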

How the results depend on the processing

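The counts of calls, rises and falls stayed within 1.5 times those with all libraries under each setting tried, and 0 genes were called in opposite directions. Without one library in turn, rises ran from 1745 to 2599 and falls from 1962 to 2430. A fit to the 6 libraries alone, where the spread comes from the 0 h and BSA 36 h groups only, called 3541 genes. Of these 1633 rose and 1908 fell. Leaving out both first replicates was chosen after seeing the data. Median differences over all genes ran from -0.018 to 0.029 and the share of calls that were rises from 43.7% to 52.7%. With the replicate number as a block, 2615 genes rose and 2772 fell, and 4503 of the earlier calls were made in the same direction. The groups share only numbers 1 and 2, with correlations of deviations of 0.169 and 0.225. Pairs of unlike numbers ran lower, from -0.21 to 0.154. The labels name no shared batch, so the numbers were not taken as pairs, and a shared origin was not tested. Of the 204 changed genes named, the block ended the call for Ier3, Lpl and Nr4a2, and a fit to the 6 libraries alone ended 26, among them Aqp1, Bmp4, Dsc2, Dsc3, Fn1, Hspa1a, Id1, Mad2l1, Nrg4, Orm1, Pole2 and Trib3, which no fit without 1 library ended. Leaving out 0 h replicate 2 ended 12 calls, 0 h replicate 4 ended 13, and BSA 36 h replicates 1, 2 and 3 ended 11, 14 and 14. Erbb3, Etv1, Pola2, Orc1, Pfkfb4, Lpl, Nr4a2, Ier3, Cycs, Krt18, Slc39a8, Zeb1, Pecam1, Cyp1a1 and Tiparp each lost it in 3 or more of these fits. The other calls lost on leaving out a library were Actb, Cdh1, Slc2a1, Snai1 and Tagln without BSA 36 h replicate 2, Actb, Col1a1 and Tjp1 without replicate 3, Jag1 without replicate 1, and Hes1 and Tjp1 without 0 h replicate 4. The causes were not tested. Depth limits genes at a few counts, and 3 libraries a group limit small differences.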

Other observations

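The families in these paragraphs were picked after their values were seen, so their counts are descriptions. Over all tested genes 12.7% rose and 14.4% fell. Kallikreins, a cluster of secreted serine proteases, rose in 10 of 11 tested members and fell in 0, and near copies among them make single values uncertain. Klk6, Klk7 and Klk1b21 read 0 CPM in every 0 h library. Klk1, Klk9, Klk13, Klk14 and Klk1b24 read at most 0.1651 CPM there. These members passed the filter on low counts through other groups and had no room to fall, so the count is no support for a rise of the family. Glutathione transferases, which couple glutathione to reactive compounds, rose in 12 of 23 and fell in 3. Gsta3 rose by 7.48 and Gstm1 by 1.92 on the log2 scale, while Gstt1, Gstt2 and Gstt3 fell.

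Some water and proton transport genes also changed. Of 8 tested aquaporins 3 rose and 3 fell, with Aqp5, the channel of secretory glands, at a log2 difference of -2.92 and Aqp1, the channel of small vessels, at -4.83. Subunits of the vacuolar ATPase proton pump rose in 6 of 19 and fell in 1, led by Atp6v0a4. Foxi1, a transcription factor of proton-secreting cells, rose by 1.49. Known targets of the aryl hydrocarbon receptor picked after their values were seen, with no list counted, were Cyp1b1 (log2 difference 4.45, 5.28 without 0 h replicate 1), Cyp1a1 (2.70), the repressor Ahrr (2.98, 3.99 without it) and Tiparp (1.08). The calls on Cyp1a1 (adjusted p = 0.119) and Tiparp (adjusted p = 0.0798) were lost in edgeR without 0 h replicate 1. Il1rn, the natural antagonist of interleukin 1 receptor, rose by 7.20, with 224 CPM in replicate 1 at 36 h against 18.9 and 33.4 CPM in the other libraries of that time.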
